A study of Mus musculus with 228 samples.

Results

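The mossy fibre synapse was followed through 10 of its genes in single hippocampal neurons, namely C1ql2, C1ql3, Nrxn3, Grik2, Grik4, Synpr, Slc30a3, Gpr158, Kirrel3 and Igsf8. They were chosen by name, and all 10 were among the 22870 gene rows of the quality-controlled count table. Each neuron was drawn into a patch pipette from an acute slice of the ventral hippocampus of mice 3 to 4 months old, 1 month after virus injection, and its RNA was sequenced. Granule cells (GC) came from Calb1-Cre mice and CA1 pyramidal cells from Nex-Cre mice, and a difference between the types cannot be told apart from one between the lines. Control cells of both types received a Cre-dependent EGFP virus (AAV) alone, and the Ascl4 groups a mixture of it with a virus carrying Ascl4, which belongs to the achaete-scute transcription factors. There was no control for the added virus itself, whose effect cannot be told apart from that of Ascl4. The GC groups held 47 (EGFP) and 51 (Ascl4) cells and the CA1 groups 46 (EGFP) and 45 (Ascl4), after 39 sequenced cells were left out by the authors' quality control. Where 4 values follow each other below, they are in that order. The labels name no animal, so the cells of a group were counted as 1 sample, no test was made, and no difference given here has a replicate check.

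The mossy fibre is the axon of the dentate granule cell, and its large boutons contact CA3 pyramidal cells, mossy cells and local interneurons. C1ql2 and C1ql3 are secreted C1q-like proteins that link presynaptic Nrxn3 to postsynaptic kainate receptors built with Grik2 and Grik4. Synpr (synaptoporin) is a vesicle membrane protein and Slc30a3 (ZnT3) loads zinc into vesicles. Gpr158 is an orphan receptor, and Kirrel3 and Igsf8 are adhesion proteins of the immunoglobulin superfamily. CA1 pyramidal cells neither send nor receive mossy fibres, and CA3 cells, where the postsynaptic members act, were not sampled.

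The promoter stretches of C1ql2, Synpr and Slc30a3 are shown because these 3 genes had the highest levels per kilobase in EGFP GC cells, and because proteins of the Ascl family bind E-boxes. Each is the 250 bases before an annotated start, from RefSeq on GRCm38.p6, written 5′ to 3′ on the gene's strand, with any E-box CANNTG in capitals. C1ql2 is at chr1:120340332-120340581 on the plus strand, Synpr at chr14:13284530-13284779 on the plus strand, and Slc30a3 at chr5:31108245-31108494 on the minus strand. None of the 3 overlaps an annotated exon.
C1ql2: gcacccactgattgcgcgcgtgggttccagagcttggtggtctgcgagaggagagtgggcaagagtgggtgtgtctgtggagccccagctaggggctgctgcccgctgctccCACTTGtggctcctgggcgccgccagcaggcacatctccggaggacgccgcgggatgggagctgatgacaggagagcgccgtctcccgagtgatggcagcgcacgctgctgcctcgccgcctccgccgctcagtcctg
Synpr: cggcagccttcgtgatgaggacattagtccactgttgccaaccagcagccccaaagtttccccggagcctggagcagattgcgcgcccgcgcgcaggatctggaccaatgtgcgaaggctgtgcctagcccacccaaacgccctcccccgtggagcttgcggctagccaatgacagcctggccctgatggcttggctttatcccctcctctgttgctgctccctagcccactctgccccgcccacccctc
Slc30a3: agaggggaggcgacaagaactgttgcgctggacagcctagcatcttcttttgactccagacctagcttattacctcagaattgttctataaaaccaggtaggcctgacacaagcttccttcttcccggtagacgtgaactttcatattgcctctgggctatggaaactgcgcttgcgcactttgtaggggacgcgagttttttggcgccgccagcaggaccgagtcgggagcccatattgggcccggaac
The C1ql2 stretch held 1 CANNTG, read as CACTTG, and the other stretches shown held none. Synpr and Slc30a3 each have a further annotated start, whose window is not shown. The further Synpr window, at chr14:13453708-13453957, held 2 CANNTG, read as CAAATG and CATTTG. The further Slc30a3 window, at chr5:31093528-31093777, held none. CANNTG reads the same on both strands and also takes in CAGCTG. It was found in 7 of 13 windows of the 9 members that matched a RefSeq entry, and in 66.2% of 32851 windows of the same length. CAGCTG was found in 1 member window, that of Gpr158, and in 13.001% of all. These matches describe letters in a window and say nothing of binding.

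Total reads per cell ran from 1077532 to 25442664, and the summed reads of a group from 214178461 to 293049911. Ascl4 stood at 14111 CPM (counts scaled to a total of 1e+06, over the summed reads of a group) in Ascl4 GC and 9395 in Ascl4 CA1 cells, against 47.2 and 32.6 in the EGFP groups. Prox1, a granule cell transcription factor, stood at 175.3 and 156.2 CPM in EGFP and Ascl4 GC and at 0.24 and 7.78 in EGFP and Ascl4 CA1. In Ascl4 CA1, 1 cell held 98.8% of the Prox1 reads. A Prox1 read was found in 6 of 45 Ascl4 CA1 cells and in 12 of 46 EGFP CA1 cells. Neurod6, a pyramidal cell factor, stood at 319 CPM in EGFP CA1 and 94.2 in Ascl4 CA1, and at 1.23 or less in GC cells. Of its Ascl4 GC reads 1 cell held 90.5%. In EGFP CA1 against EGFP GC all 10 granule markers were lower and all 10 CA1 markers higher, and in Ascl4 CA1 against EGFP CA1 cells 5 CA1 markers were lower and 2 higher. Higher and lower for these lists mean at least 1.5-fold in the summed CPM, with no test, among genes past the filter defined below. Over all genes past it, the shares lower and higher with Ascl4 were 30.7% and 25.6% in GC and 24.3% and 24% in CA1. In EGFP CA1 against EGFP GC the shares lower and higher in CA1 were 27.1% and 30.5%. Of the granule markers 4 of 10 were lower with Ascl4 in GC, near the share of all genes, and 1 was higher. Cell medians of the summed list were 2564 CPM with EGFP and 2341 with Ascl4. In CA1, 4 of the 5 that passed the filter were higher and 0 lower, with cell medians of 569 and 1016 CPM. By the summed levels of these lists, 0, 1, 4 and 18 cells resembled the other type more than their own. With the 7 granule markers that are low in EGFP CA1 cells, a choice made after seeing the data, the counts were 0, 4, 0 and 1. Lists of other cells and states were counted in the same way, beside the same shares of all genes. The summed interferon genes had cell medians of 1.32, 388, 0.65 and 192.96 CPM (highest cells 318, 4779, 324 and 3189), with 9 of 9 genes past the filter higher with Ascl4 in GC and 8 of 8 in CA1, and Rsad2 at 0 in EGFP GC. The summed microglia markers had cell medians of 17.3, 96.3, 547 and 799 CPM (highest cells 13315, 12466, 21788 and 52515), with 6 of 9 and 7 of 10 genes higher and no marker at 0. Oligodendrocyte markers had cell medians of 238, 44.7, 441 and 156.2 CPM (highest cells 5314, 115644, 20548 and 35790). In the summed reads of GC 4 of 5 genes were higher, opposite to the cell medians, and in CA1 2 of 6 were higher and 1 lower. Of the astrocyte markers 3 of 7 were higher and 3 lower in GC, and 2 of 5 lower in CA1. Of the interneuron markers 1 of 4 was higher and 2 lower in GC, and 2 of 3 higher and 1 lower in CA1. Of the CA3 and mossy cell markers 2 of 3 were higher in GC, and 0 of 7 passed the filter in CA1. The part of these lists in the results on the 10 genes was not tested. The title numbers of every group form 2 stretches, called runs here although no label names them batches, with 15 and 32, 33 and 18, 15 and 31, and 17 and 28 cells, and key values are given for each.

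**Figure D1:**
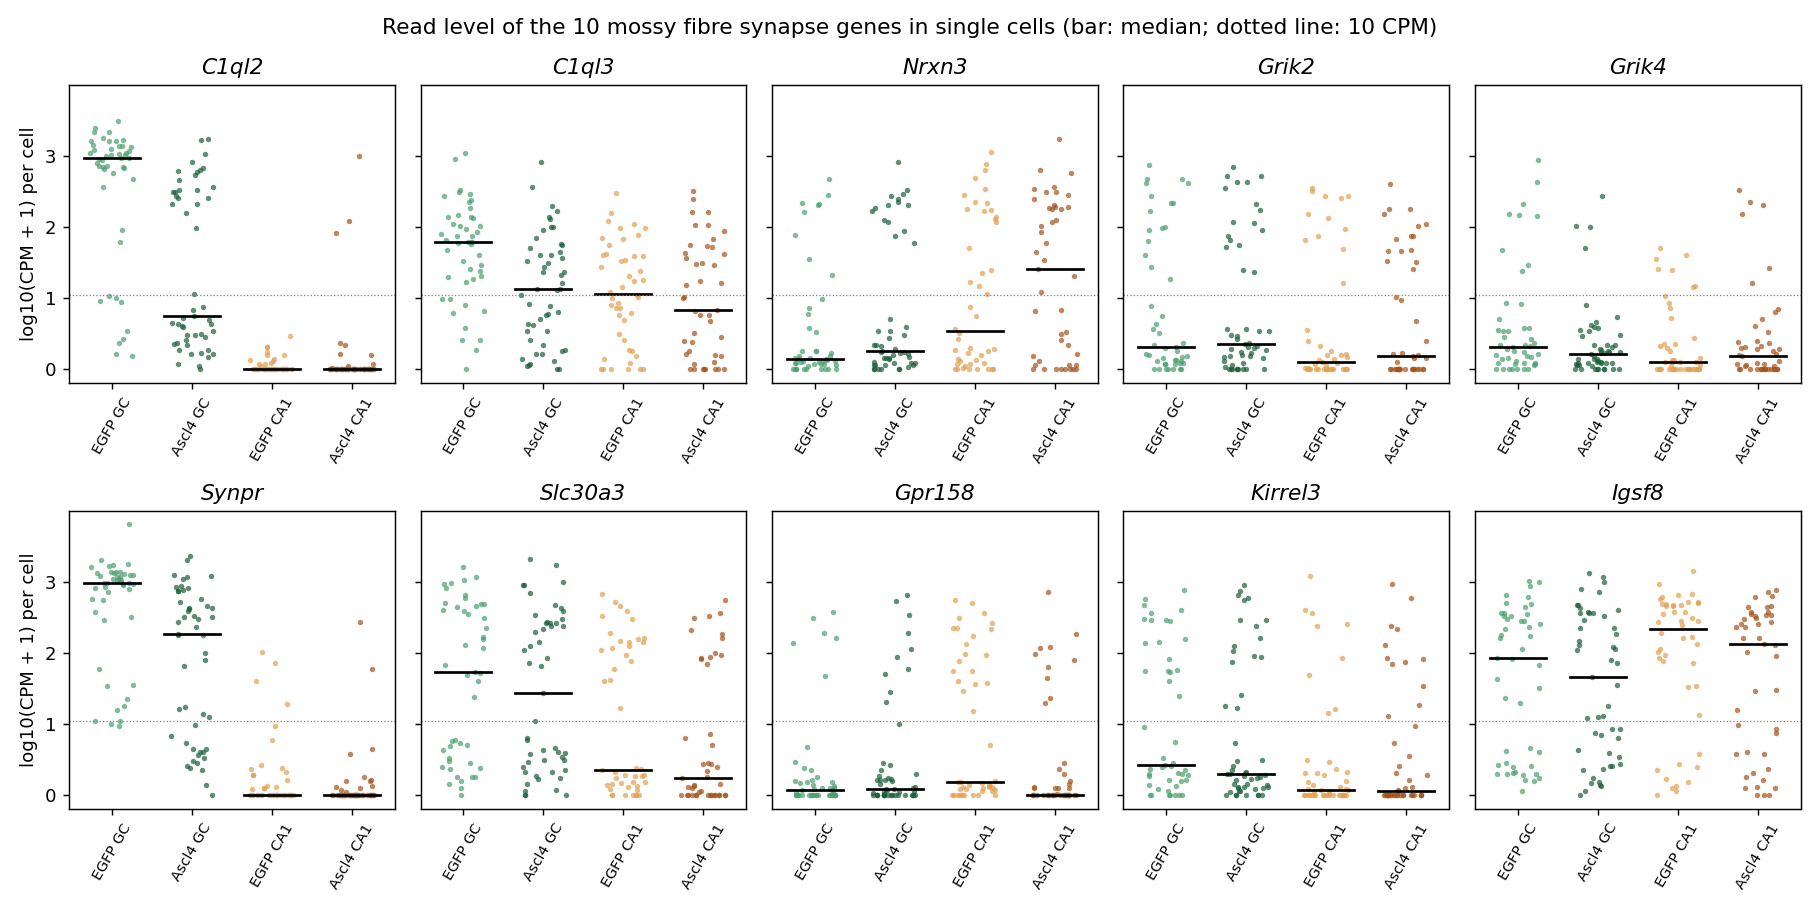
Level of each of the 10 genes in every cell, as log10 of CPM plus 1, for the 4 groups. Points are cells, bars are medians and the dotted line is 10 CPM. The C1ql2 and Synpr medians in EGFP GC lie near 3 on this axis, and those in both CA1 groups lie at 0.

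Among the synaptic organizers, C1ql2 was abundant in granule cells, far lower in granule cells with Ascl4, and at or near 0 in most CA1 cells. C1ql2 (chromosome 1, 120340582 to 120343174, plus strand, GRCm38) ran from 0.54 to 3149 CPM per cell in EGFP GC with a median of 949. In Ascl4 GC it ran from 0 to 1735 with a median of 4.58. The groups overlapped, but 38 of 47 EGFP GC cells and 23 of 51 Ascl4 GC cells reached 10 CPM (80.9%, exact 95% interval 66.7 to 90.9, and 45.1%, 31.1 to 59.7). Among the cells that reached it the median was 1057 CPM in EGFP GC and 338 in Ascl4 GC, so both the share of cells and the level in such cells were lower with Ascl4. All intervals cover counting error only, and amplified reads that carry no molecular identifiers do not stand for independent molecules. The summed level was 1017 CPM against 294 CPM, a log2 ratio of -1.78 (-1.80 to -1.77, with 1 CPM added to each value, as in all ratios here). It was -2.20 in the first run of title numbers and -1.40 in the second.

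In CA1 cells C1ql2 was at a median of 0 CPM in both groups. Its highest EGFP CA1 cell stood at 1.96 CPM, and 0 of 46 cells reached 10 CPM, which allows a share of up to 6.52% by the limit of 3 cells in all, and of up to 7.71% by the exact interval. In Ascl4 CA1 cells 3 of 45 reached 10 CPM, at 995, 120 and 80.9 CPM, and the first held 87.8% of the group's C1ql2 reads. That cell had 0 of the 10 CA1 markers at 10 CPM, and also 0 of the 7 granule markers that are low in EGFP CA1 cells. Prox1 and Synpr were at 0, Calb1 (calbindin) at 4121 CPM and Rfx3, a granule-enriched transcription factor, at 2677. Calb1 and Rfx3 were also read in EGFP CA1 cells, at summed levels of 617 and 32.9 CPM. The next cell had reads in 17883 genes, against a group median of 6832, and Synpr at 271 CPM. It had 4 of the 10 CA1 markers and 4 of the 7 granule markers at 10 CPM. The third had 4 of the 10 CA1 markers at 10 CPM, with Mpped1 at 978 CPM, and 0 of the 7 granule markers. The summed log2 ratio of Ascl4 to EGFP was 4.17 (4.06 to 4.27), and that of the mean per-cell CPM was 4.56 with all cells and 2.33 without the highest cell of each group. The summed ratio was 1.21 in the first run and 5.14 in the second. It was 1.17 without the cells that resembled the other type by the full lists (4 EGFP and 18 Ascl4 cells). With the 7 granule markers that are low in EGFP CA1 cells, which leave out 1 Ascl4 CA1 cell, it was 4.19.

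C1ql3 (chromosome 2, 13003457 to 13011806, minus strand) differed less between cell types than its paralog. Its median was 61.3 CPM in EGFP GC (0 to 1109.6), 12.4 in Ascl4 GC (0 to 832), 10.7 in EGFP CA1 (0 to 307) and 5.77 in Ascl4 CA1 (0 to 329). All 4 groups overlapped, with 37, 28, 24 and 20 cells at 10 CPM. The summed log2 ratio of Ascl4 to EGFP was -1.13 (-1.17 to -1.09) in GC, with -1.18 in each run, and 0.11 in CA1, where the runs gave 2.01 and -0.86. Of its annotated exon bases 64.2% also lie in 2 gene models on the opposite strand, and whether the counting used strand is not given in the sources used here.

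Nrxn3 (chromosome 12, 88722876 to 90334935, plus strand), the presynaptic partner, was ordered the other way, highest in CA1 cells. Its median was 0.39 CPM in EGFP GC (0 to 475), 0.79 in Ascl4 GC (0 to 834), 2.46 in EGFP CA1 (0 to 1146) and 25.2 in Ascl4 CA1 (0 to 1760). Most GC cells were near 0, and 9, 15, 20 and 25 cells reached 10 CPM in that order of groups. The summed levels of 41.8, 62.3, 84.5 and 102.8 CPM overlapped between neighbouring groups over the 2 runs. The log2 ratio of Ascl4 to EGFP in GC was 0.56 (0.51 to 0.61), just under 1.5-fold, and had opposite signs in the runs, 1.85 and -0.28.

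**Figure D2:**
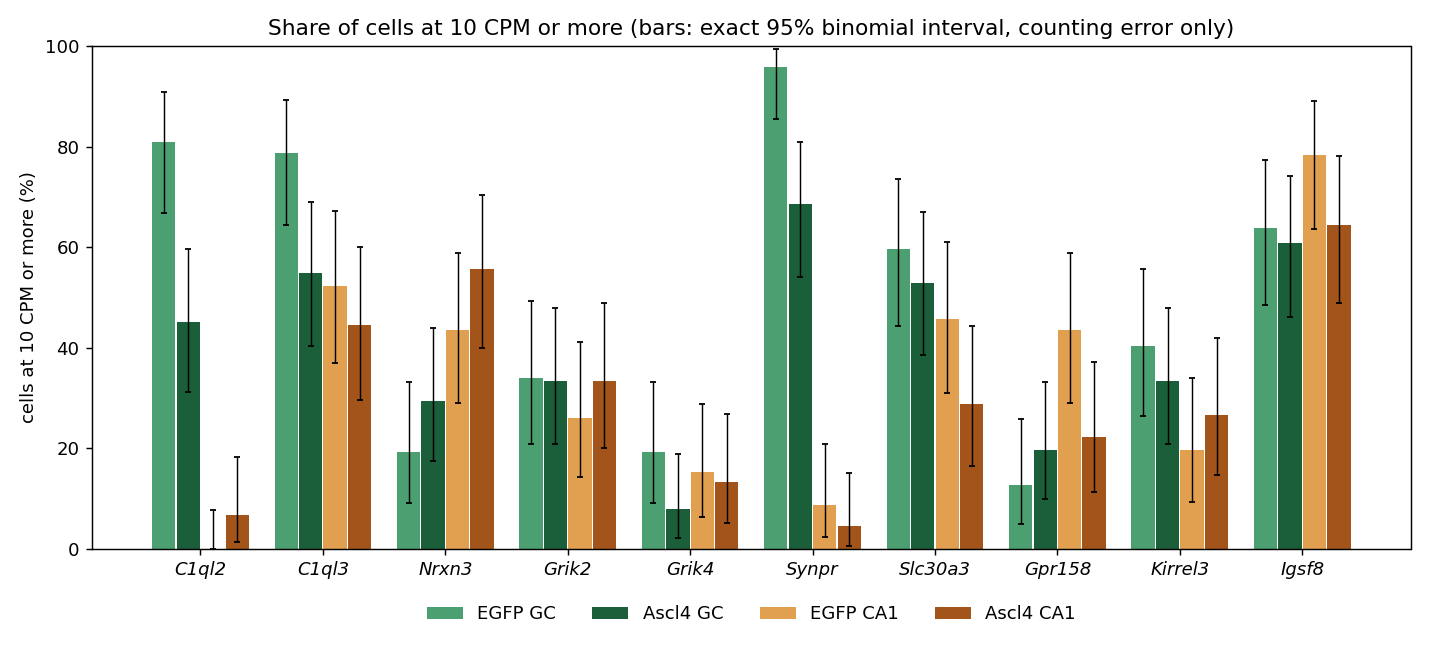
Share of cells at 10 CPM or more for each gene, in percent, by group. Error bars are exact 95% binomial intervals for counting error only. C1ql2, C1ql3 and Synpr were lower in Ascl4 GC than in EGFP GC cells, at 45.1% against 80.9%, 54.9% against 78.7% and 68.6% against 95.7%.

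Both kainate receptor genes were detected at 10 CPM in a minority of cells of every group. Grik2 (chromosome 10, 49094833 to 49788766, minus strand), the low-affinity subunit that forms the channel, had medians of 1.07, 1.24, 0.25 and 0.52 CPM in the 4 groups and highest cells at 750, 705, 357 and 407 CPM. The groups overlapped, with 16, 17, 12 and 15 cells at 10 CPM. The summed level was 85.7 CPM in EGFP GC and 75.8 in Ascl4 GC, with a log2 ratio of -0.18 (-0.21 to -0.14). In CA1 it was 54.0 CPM with EGFP and 32.2 with Ascl4, a log2 ratio of -0.73 (-0.78 to -0.67) that was -0.14 in the first run and -0.94 in the second, and -0.33 for the mean per-cell CPM. More Ascl4 CA1 cells than EGFP CA1 cells reached 10 CPM, so the summed level and the share of cells were ordered oppositely.

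Grik4 (chromosome 9, 42518135 to 42944493, minus strand), a high-affinity subunit that needs a partner, reached 10 CPM in fewer Ascl4 GC cells than any other member. Its medians were 1.09, 0.62, 0.26 and 0.54 CPM, and the highest cells stood at 879, 280, 49.7 and 337 CPM. The groups overlapped, with 9, 4, 7 and 6 cells at 10 CPM. The summed level was 44.5 CPM in EGFP GC, where 1 cell held 39.5% of the reads, and 12.5 in Ascl4 GC, a log2 ratio of -1.75 (-1.83 to -1.68) that was -1.99 for the mean per-cell CPM without the highest cells. In CA1 it was 6.75 CPM with EGFP and 12.04 with Ascl4, a log2 ratio of 0.75 (0.64 to 0.86). The runs gave -2.60 and -1.01 in GC, and 1.51 and 0.10 in CA1. Without the CA1 cells that resembled the other type by the full lists (4 EGFP and 18 Ascl4 cells) the CA1 ratio was 0.33, under 1.5-fold. With the 7 granule markers that are low in EGFP CA1 cells, which leave out 1 Ascl4 CA1 cell, it was 0.77.

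Of the vesicle genes, Synpr had the same order of summed levels over the groups as C1ql2, with the CA1 groups overlapping over the runs. Slc30a3 was also higher in the summed reads of GC than of CA1 cells, with Ascl4 GC overlapping EGFP CA1 over the runs, and its CA1 groups were in the opposite order. Synpr (chromosome 14, 13284780 to 13616340, plus strand) ran from 8.46 to 6532 CPM per cell in EGFP GC with a median of 964, and from 0 to 2354 in Ascl4 GC with a median of 184.2. The groups overlapped, with 45 of 47 and 35 of 51 cells at 10 CPM. The medians of those cells were 970.3 and 423 CPM. In CA1 the median was 0 in both groups, and 4 EGFP and 2 Ascl4 cells reached 10 CPM, the highest at 102.3 and 271. The log2 ratio of Ascl4 to EGFP in GC was -1.43 (-1.45 to -1.42) from 1040.2 CPM against 384 CPM, with -0.95 in the first run and -1.88 in the second. Synpr did not pass the expression filter in the CA1 comparison, where it stood at 3.97 and 5.35 CPM.

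Slc30a3 (chromosome 5, 31086106 to 31108237, minus strand) was present in all 4 groups. Its median was 52.8 CPM in EGFP GC (0 to 1623), 26.7 in Ascl4 GC (0 to 2119), 1.27 in EGFP CA1 (0 to 672) and 0.72 in Ascl4 CA1 (0 to 557). The groups overlapped, with 28, 27, 21 and 13 cells at 10 CPM. Summed, it stood at 305 CPM in EGFP GC and 251 in Ascl4 GC, a log2 ratio of -0.28 (-0.30 to -0.26), but the ratio was 1.37 in the first run and -1.86 in the second. In CA1 it stood at 119.1 CPM and 79.8 CPM, a log2 ratio of -0.57 (-0.61 to -0.53) with -0.27 and -0.80 in the runs.

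Gpr158 (chromosome 2, 21367542 to 21830547, plus strand), which organizes postsynaptic contacts of mossy fibres in CA3, was highest in EGFP CA1 cells. Its medians were 0.16, 0.22, 0.53 and 0 CPM in the 4 groups, and the highest cells stood at 378, 657, 561 and 731 CPM. The groups overlapped, but 20 of 46 EGFP CA1 cells reached 10 CPM against 6, 10 and 10 in the other groups. The summed level was 76.6 CPM in EGFP CA1 and 24.5 in Ascl4 CA1, a log2 ratio of -1.61 (-1.67 to -1.55). The runs gave -0.59 and -2.64, so the lower level held in both, and 1 Ascl4 CA1 cell held 45.9% of the group's reads. In GC the ratio was -0.06 and its sign differed between runs, at 0.42 and -0.88.

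The adhesion genes Kirrel3 and Igsf8 differed by less than 1.5-fold with Ascl4 in the summed reads of both cell types. Kirrel3 (chromosome 9, 34485894 to 35036716, plus strand), an adhesion protein that binds its own kind across cells, had medians of 1.66, 0.97, 0.17 and 0.13 CPM and highest cells at 769.6, 918, 1208 and 938 CPM. It stood at summed levels of 110.3, 120.9, 44.3 and 64.8 CPM, with 19, 17, 9 and 12 cells at 10 CPM and neighbouring groups overlapped over the runs. Igsf8 (chromosome 1, 172261641 to 172319841, plus strand) was found at 10 CPM in 30, 31, 36 and 29 cells, a majority of every group, with medians of 84.3, 44.4, 218.6 and 132.9 CPM, highest cells at 1030.1, 1343, 1454 and 762 CPM and summed levels of 209.05, 197.5, 247 and 256 CPM. The log2 ratios of Ascl4 to EGFP were 0.13 for Kirrel3 and -0.08 for Igsf8 in GC, and 0.54 and 0.05 in CA1, and with the authors' normalized values the CA1 ratios were -0.53 and -0.67. Those of Kirrel3 were 0.74 and 0.07 in the GC runs and 1.12 and -0.45 in the CA1 runs. Those of Igsf8 had opposite signs in the runs, 0.60 and -0.76 in GC and 0.55 and -0.54 in CA1.

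Levels of different genes were compared per kilobase of exon. In EGFP GC, C1ql2 stood at 508 CPM per kb, ahead of Synpr at 110.2, Slc30a3 at 107.7, C1ql3 at 48.8 and Igsf8 at 40.1. Kirrel3 was at 17.1, and Grik4, Grik2, Gpr158 and Nrxn3 were between 3.32 and 7.46. In Ascl4 GC, C1ql2 was again first, at 147.2, and Slc30a3 at 88.4 was ahead of Synpr at 40.7. In both CA1 groups Igsf8, Slc30a3 and C1ql3 came first in that order, at 47.3, 42.04 and 13.1 CPM per kb with EGFP and 49.1, 28.2 and 14.2 with Ascl4.

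The design also compares Ascl4 with EGFP within each cell type, and CA1 with GC cells within each treatment. These 4 comparisons share groups, so their values are set side by side and no overlap between them is read. Called here means at least 1.5-fold apart in the summed CPM, with no test, among genes seen in 25% or more of a group's cells and at 10 CPM or more in a group. Ascl4 GC against EGFP GC had 4 of 10 members lower and 0 higher, where 30.7% of 9783 genes were lower, 25.6% higher and 56.3% either. The 4 were C1ql2, Grik4, Synpr and C1ql3. Without the 4 Ascl4 GC cells that had reads in over 12000 genes, their log2 ratios were -1.66, -1.65, -1.33 and -1.02. The members' median log2 ratio was -0.23 against -0.08 over all genes that passed. Ascl4 CA1 against EGFP CA1 had 2 higher (C1ql2 and Grik4) and 2 lower (Gpr158 and Grik2) of the 9 members that passed, against 24% and 24.3% of 9781 genes (48.4% either way). The medians there were 0.11 and -0.02. C1ql2 met the 2 parts of the filter in different groups. It had a read in 13 of 46 EGFP CA1 cells (28.3%, at a summed 0.18 CPM) and in 10 of 45 Ascl4 CA1 cells (22.2%, at 20.3 CPM). Its call as higher therefore rests on the level in few cells and not on more cells with a read. In neither comparison is the members' share of calls far from that of all genes, and the counts alone are no result about them.

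EGFP CA1 against EGFP GC had 7 members lower and 2 higher of 10, where 27.1% of 9954 genes were lower, 30.5% higher and 57.6% either. C1ql2 (log2 ratio -9.75) and Synpr (-7.71) were far apart from the rest, followed by Grik4 (-2.55), C1ql3 (-1.86), Slc30a3 (-1.35), Kirrel3 (-1.30) and Grik2 (-0.66). Gpr158 (1.40) and Nrxn3 (1.00) were higher in CA1, and Igsf8 (0.24) was within 1.5-fold. In the first run Slc30a3 was at -0.39 and Kirrel3 at -0.32, and in the second run Grik2 was at -0.47, all under 1.5-fold. The members' median was -1.32 against 0.02 over all genes. Ascl4 CA1 against Ascl4 GC had 6 lower and 1 higher of 10, where 25.4% of 9966 genes were lower, 32.9% higher and 58.3% either, with medians of -0.76 and 0.12. C1ql2 stood at -3.80 there and Synpr at -5.92, while Grik4 was at -0.05. The higher one, Nrxn3, was at 0.71 but at -0.44 in the first run. With the authors' normalized values the shares of all genes lower and higher were 40.5% and 24.99% in that comparison, and 38.4% and 25.7% in EGFP CA1 against EGFP GC.

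**Figure D3:**
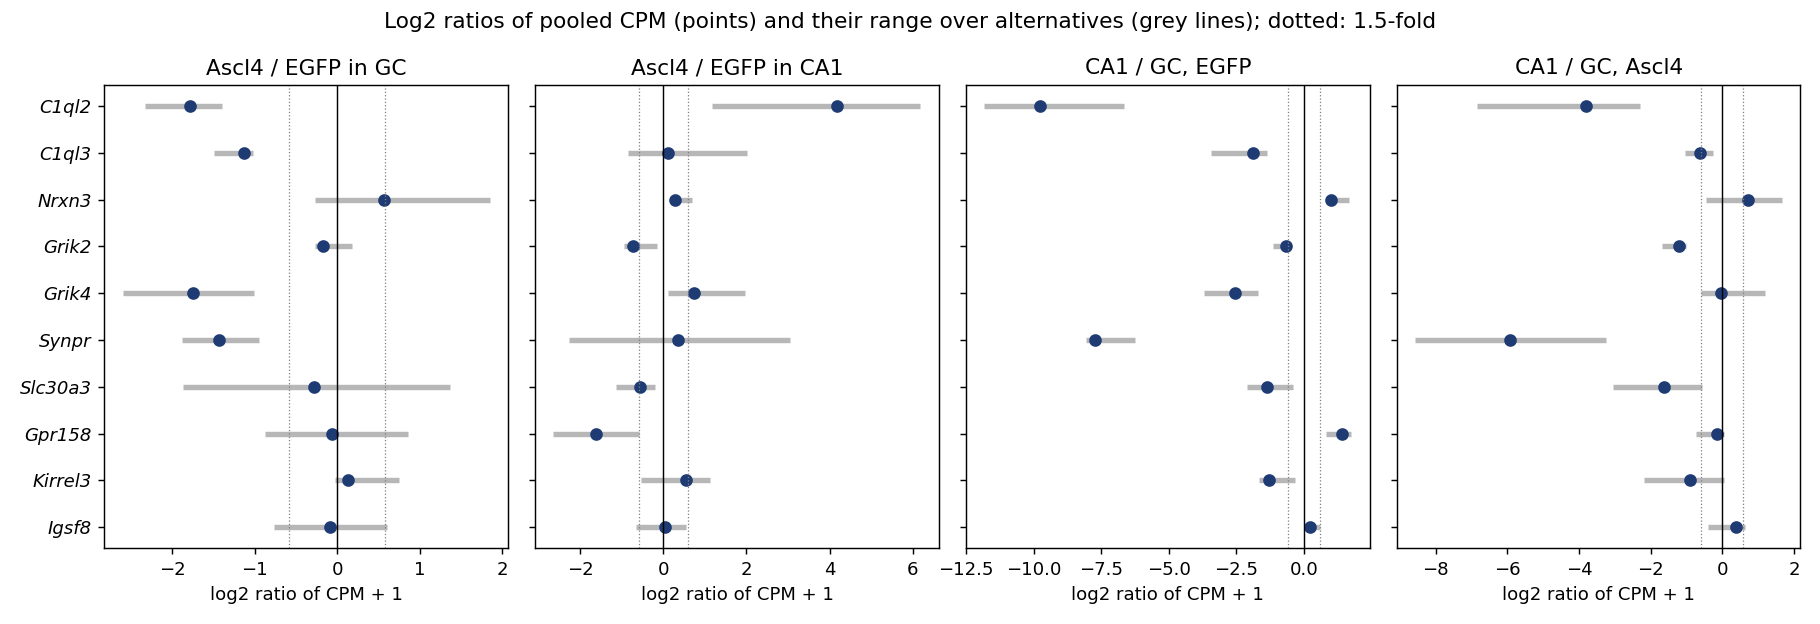
Log2 ratio of summed CPM plus 1 for each gene in the 4 comparisons. Points are the reported values, grey lines the range over 16 other ways of processing and dotted lines 1.5-fold. In the GC comparison the lines of C1ql2, C1ql3, Grik4 and Synpr lie wholly below the lower dotted line.

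**Figure D4:**
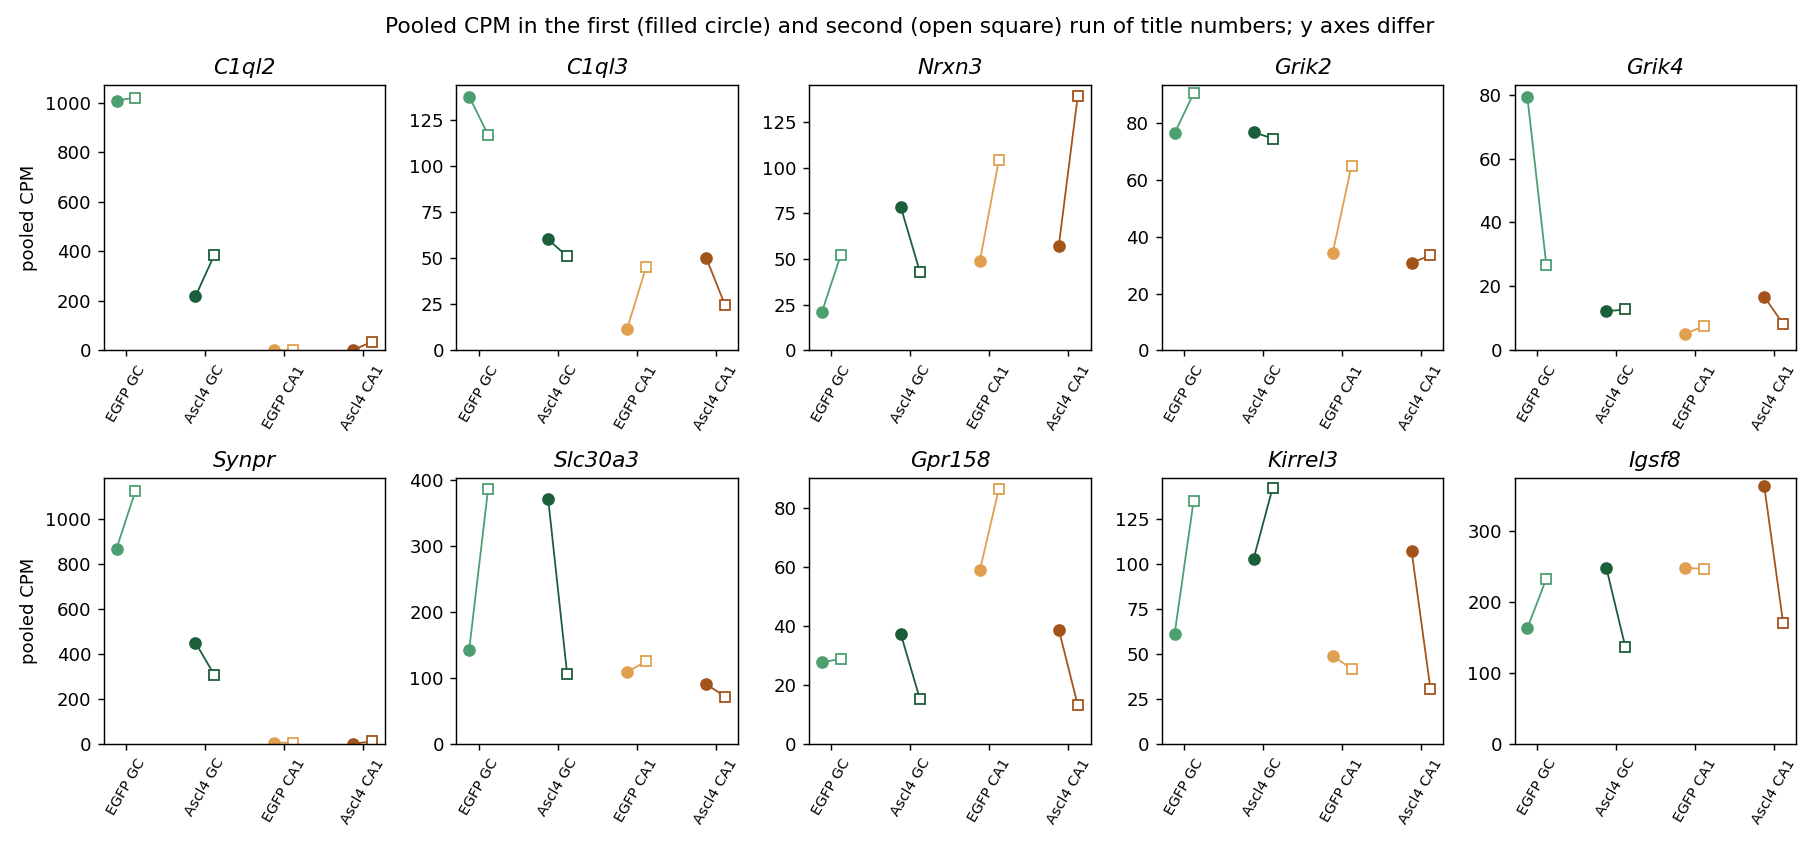
Summed CPM of each gene in the first (filled circles) and second (open squares) run of title numbers, by group, with a y axis for each gene. C1ql2 in EGFP GC was at 1009 and 1021 CPM, while Slc30a3 was at 143 and 387 in EGFP GC and at 371 and 105.6 in Ascl4 GC.

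Genes that work beside the members were followed in 6 lists of 39 genes. In Ascl4 GC against EGFP GC, 13 were lower and 2 higher of the 29 that passed the filter, with a median log2 ratio of -0.37, where 30.7% of all genes were lower and 25.6% higher and their median was -0.08. Among the organizer partners 3 of 5 were lower. Of these, Gpc4, a heparan sulphate proteoglycan of mossy fibre boutons, was at 36.9 CPM against 113.4, and Adgrb3, a C1ql receptor, was at 112.8 against 183.3. Both were under 1.5-fold in 1 of the runs, Gpc4 in the first (57.1 CPM against 69.5) and Adgrb3 in the second (159.7 against 199.7). Of the kainate receptor partners the subunit Grik3 was higher (34.4 CPM against 5.75, 1 cell holding 58.3% of the Ascl4 GC reads) and the auxiliary Neto1 lower (30.6 against 91.6, 1 cell holding 58.4% of the EGFP GC reads). Grik3 was at 10.9 CPM against 8.57 in the second run, and Neto1 was in the opposite order in the first, at 17.98 against 11.4. The vesicle and zinc partners had 3 of 6 lower, led by the vesicular glutamate transporter Slc17a7 at 79.9 CPM against 318, which was lower in both runs. None of the 4 measured Gpr158 and Igsf8 partners was called.

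Adhesion partners had 3 of 3 lower, led by Cdh9, a cadherin of the mossy fibre contact with CA3, at 44.1 CPM against 201.7. Of the release and peptide genes 3 of 8 were lower and 1 higher. Pdyn, the prodynorphin peptide precursor, was at 0.32 CPM in Ascl4 GC against 32.2 in EGFP GC, with 1 and 6 cells at 10 CPM. Unc13b, a priming factor, was at 1.47 CPM against 49.2, but 1 EGFP GC cell held 88.6% of the reads and the second run gave 3.12 against 4.42. Stxbp5 (tomosyn) was at 123.9 CPM against 51.3, with 18 cells at 10 CPM in each group, but at 64.6 against 67.9 in the second run. Cdh9 and Pdyn were lower in both runs.

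In Ascl4 CA1 against EGFP CA1, 6 partner genes were higher and 4 lower of 27 that passed, where 24% of all genes were higher and 24.3% lower, so the counts are no result about the partners. Neto2, a kainate receptor auxiliary, was at 117.3 CPM against 33.5, with 21 and 14 cells at 10 CPM. The Igsf8-associated tetraspanins Cd9 and Cd81 were at 94.3 against 32.6 and 721 against 268 CPM, but 1 Ascl4 CA1 cell held 71.7% of the Cd9 reads, and Cd9 was in the opposite order in the first run, at 24.4 CPM in Ascl4 CA1, below the EGFP cells. Rgs7, which binds Gpr158, was at 87.7 CPM against 183.3, and so was lower in the summed reads, as Gpr158 was. Cell by cell Rgs7 was not lower, with 21 of 45 and 22 of 46 cells at 10 CPM and medians of 7.53 CPM with Ascl4 and 2.60 with EGFP. Penk, the proenkephalin precursor, was at 45.9 CPM against 135.998, Stxbp5 at 175.8 against 68.3 and Bdnf, a secreted growth factor, at 193.4 against 103.4.

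Between cell types, 11 partners were lower and 5 higher of 29 that passed in EGFP CA1 against EGFP GC, where 27.1% of all genes were lower and 30.5% higher. Lrrtm4, a postsynaptic partner of Gpc4, stood at 0.02 CPM in CA1 against 61.7 in GC, Cdh9 at 9.13 against 201.7 and Bdnf at 103.4 against 509. Neto2 was at 33.5 CPM against 4.59. Neto1 was at 16.9 against 91.6 in the summed reads, of which 1 EGFP GC cell held 58.4%, and at 12.8 against 11.4 in the first run. Ascl4 CA1 against Ascl4 GC had 8 lower and 7 higher of 29, where 25.4% of all genes were lower and 32.9% higher.

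Cell by cell, the number of members at 10 CPM had a median of 5 in EGFP GC (0 to 9), 4 in Ascl4 GC (0 to 8), 3.5 in EGFP CA1 (1 to 6) and 3 in Ascl4 CA1 (0 to 7). At least 6 members were reached in 20 of 47, 10 of 51, 3 of 46 and 4 of 45 cells. In EGFP GC, 37 of the 38 cells with C1ql2 at 10 CPM also had Synpr, and 32 had C1ql3. In Ascl4 GC, 20 of 23 such cells had Synpr and 16 had C1ql3, and 15 cells had Synpr without C1ql2. Spearman's rho between pairs of members, each over the cells of 1 group that share library and depth differences, was in the GC groups at most 0.40 (C1ql3 with Slc30a3, 47 cells) in EGFP GC and 0.28 (C1ql2 with Grik4, 51 cells) in Ascl4 GC. In the CA1 groups it reached 0.54 (C1ql2 with Synpr, 46 cells, both genes at a median of 0) with EGFP and 0.42 (C1ql2 with Kirrel3, 45 cells) with Ascl4. At 0.3 or more were 3, 0, 3 and 7 of 45 pairs. In sparse counts such weak values are no finding. In EGFP CA1 the summed C1ql2 level was 0.48 CPM in the first run and 0.012 in the second. The part of the runs in the rho of 0.54 was not tested. C1ql2 had a rho of 0.30 with Ascl4 over the 51 Ascl4 GC cells. That value is 1 of many computed between members and other per-cell measures, and no relation to the Ascl4 level is read from it.

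The 5 genes with the per-cell pattern most like that of C1ql2 in EGFP GC, by Spearman's rho over 47 cells among 6552 genes, were Atp6v1c1 (0.60), Pkd1 (0.58), Slc17a7 (0.57), Ogt (0.54) and Chrd (0.51). Over the 51 Ascl4 GC cells their rho with C1ql2 was 0.12, 0.10, -0.07, -0.02 and -0.07. Because the 5 were picked as the highest of 6552 values, lower values in other cells follow from the picking. No loss of a shared pattern with Ascl4 can be read from them. In EGFP GC 5.95% of the genes had a rho of 0.3 or more.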

How the data were processed

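Counts of reads per gene were deposited for every cell. Per the submitters' processing notes they come from STAR and HTSeq on GRCm38.p4, with no version or setting given in the sources used here. A further table deposited by the authors holds normalized signal, which equals the counts divided by 1 factor per cell. The cells kept by quality control number 47, 51, 46 and 45 in the table used, against 53, 52, 48 and 51 in the series text. Totals exclude the 92 spike-in rows (4 reads).

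Groups came from the cell titles. Counts were summed over the cells of a group, scaled to CPM and compared as log2 ratios with 1 CPM added, so deeper cells weigh more. Intervals are exact Poisson (counts) and exact Clopper-Pearson (shares) at 95%. No doublet caller was run, since each cell was patched singly. Cells were thinned to 500000 reads as an alternative. The scaling factors of edgeR 4.0.16 and DESeq2 1.42.0 (R 4.3.3) served as alternatives and no count test was run. Scripts ran in Python 3.11.15 with scipy 1.17.1, pandas 2.3.3, numpy 2.4.6 and matplotlib 3.10.9. Gene positions and exon lengths came from GENCODE M21 on GRCm38. The code for the ratios was checked on simulated Poisson counts of whole groups. That simulation held no variation between cells, so it says nothing of how far single cells move a ratio.

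All 10 members were named, as were Ascl4, Prox1 and Neurod6, at most 3 genes per partner list and comparison by size of the log2 ratio, and the 5 genes most like C1ql2. Some genes that this rule takes are not reported here. Marker genes named in single cells, and genes named for a level in 1 cell, were picked after their values were seen. Members and lists were chosen with earlier results of these data known.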

Additional observations from a re-analysis of the deposited data

Results flagged for a closer look

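C1ql2 and Grik4 lay in opposite directions with Ascl4 in the 2 cell types. The log2 ratio of C1ql2 was -1.78 in GC and 4.17 in CA1, and that of Grik4 was -1.75 in GC and 0.75 in CA1. The difference between the cell types was not tested. In CA1, 87.8% of the C1ql2 reads of the Ascl4 group came from 1 cell, and 36.2% of its Grik4 reads from 1 cell. A C1ql2 read was found in 10 of 45 Ascl4 CA1 cells and in 13 of 46 EGFP CA1 cells.

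Synpr stood at 485.6 CPM in the 13 Ascl4 CA1 cells that quality control left out, against 5.35 CPM in the 45 cells kept. All of those reads came from 1 cell at 4363 CPM, which had 1788432 reads in all, reads in 3023 genes, Prox1 at 0 and a CA1 marker at 1147 CPM.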

How the results depend on the processing

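Each log2 ratio was recomputed under 16 alternatives and each count under 18, of which the stricter granule markers were added after seeing the data. The 4 genes lower in Ascl4 GC kept that direction under every one, and C1ql2, C1ql3, Grik4 and Synpr were still called under each except the stricter expression filter, which kept 3. The count of members higher in Ascl4 GC, 0 as reported, was 2 with the mean per-cell CPM, with that mean without the highest cell, with thinned cells and with the authors' normalized values, 1 without the deepest 10% of cells and with all cells, and 4 in the first run alone; the count lower was 7 in the second run. In CA1 the count higher, 2 as reported, was 1 without the highest cell, with thinned cells and with 10 CPM added, and 0 in the second run, without cells resembling the other type and with the stricter filter, where C1ql2, Grik4 or both lay under 1.5-fold or did not pass the filter. It was 3 in the first run, where the genes were C1ql3, Grik4 and Kirrel3. The count lower in CA1, 2 as reported, was 1 in the first run and 4 in the second run and without the deepest cells. In EGFP CA1 against EGFP GC the 9 calls kept their direction throughout, and 7 to 9 were still called. In Ascl4 CA1 against Ascl4 GC the count higher, 1 as reported, was 0 with DESeq2 factors, without the deepest cells and in the first run, and 2 with the mean per-cell CPM, with that mean without the highest cell, with thinned cells, without cells resembling the other type and with the authors' normalized values. In the first run of that comparison Nrxn3 was at -0.44 and Kirrel3 at 0.062, opposite to the reported signs. The causes were not tested. The authors' normalized values moved the median log2 ratio of all genes from 0.02 to -0.25 in EGFP CA1 against EGFP GC and from 0.12 to -0.31 in Ascl4 CA1 against Ascl4 GC. No paired analysis was possible because the labels name no animal, and the results come from no test. Depth limits members near 0: a median of 0 CPM does not show absence.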
